A study of Homo sapiens with 4 samples.

Results

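The 31 genes described here encode the core machinery of apoptosis: the BCL2 family, initiator and executioner caspases, the proteins that inhibit them, and parts of the death receptor and apoptosome complexes. They were named by symbol from a fixed list, and all 31 matched an identifier among the 64252 gene identifiers of the count table. RNA was sequenced from J.gamma1, a line of human T-ALL (acute lymphoblastic leukemia of T cells) that descends from Jurkat and has no phospholipase C gamma 1, in 2 groups of 2 libraries. The shELOVL5 cells were transfected with a short hairpin RNA against ELOVL5, a fatty acid elongase, and the shNC cells with a control hairpin. The column headers of all 4 libraries carry the mark D4, which the labels do not explain, and the time of sampling is not given in the labels. All 4 libraries come from this single line, and the labels name neither the hairpin sequence nor separate cultures, so p-values reflect the spread of these libraries alone, and that spread may be technical.

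Apoptosis runs along 2 routes. In the mitochondrial route, BH3-only proteins sense damage and bind either the anti-apoptotic BCL2 proteins or the effectors BAX and BAK1, which open the outer mitochondrial membrane; released cytochrome c then joins APAF1 and caspase-9 in the apoptosome. In the death receptor route, ligands such as FAS ligand and TRAIL gather FADD and caspase-8 or caspase-10 at the receptor, a step that the caspase-like protein cFLIP restrains. IAP proteins such as XIAP block active caspases, and DIABLO and HTRA2, once released from mitochondria, relieve that block.

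Total counts were 17338719 and 16311139 in the shELOVL5 libraries and 17246603 and 16254002 in the shNC libraries. CPM is the count scaled to library size. By total counts alone, without the TMM scaling used for the other CPM values, 3 counts corresponded to 0.173 to 0.185 CPM. Mitochondrially encoded genes took 3.30% and 3.11% of the counts in shELOVL5 libraries, against 2.62% and 2.61% in shNC libraries, and the part of this in the results was not tested. ELOVL5 gave 1255 and 1157 counts in shELOVL5 cells, against 5816 and 5664 in shNC cells, 4.90-fold lower in shELOVL5. Of 9 T cell markers all 9 were expressed well enough to be tested, with a summed level of 1478 to 1514 CPM in shELOVL5 and 1470 to 1471 CPM in shNC libraries. Single T cell markers moved both ways: CD3E (log2 fold change 0.32) and CD3G (0.25) rose, and CD3D (-0.26), CD247 (-0.28) and LCK (-0.17) fell. Of 5 B cell markers 1 was tested, CD79A, which gave 465 and 410 counts in shELOVL5 and 739 and 597 in shNC libraries; MS4A1, PAX5 and CD22 stayed at 5 counts or fewer in every library. Whether the change of CD79A or of single T cell markers goes with the results here was not tested. Summed myeloid, erythroid, and epithelial or fibroblast markers lay between 0.242 and 12.9 CPM in every library, with LYZ, CSF1R, HBB, ALAS2, EPCAM, CDH1 and COL1A2 at 0 counts in all 4. In these bulk samples, fewer cells of a type and less RNA per cell cannot be told apart.

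Of the 31 genes 30 passed the filter on low counts, and 10 of the 30 changed: 6 were higher and 4 lower in shELOVL5 cells. Over all 17461 genes tested, 20.4% changed, 9.22% higher and 11.2% lower. Where the mean reached 10 CPM the share was 29.5%, and 9 of the 26 apoptosis genes at that level changed (34.6%), close to that background. A change here is an adjusted p under 0.05 by edgeR's quasi-likelihood test with Benjamini-Hochberg adjustment over all tested genes, and all fold changes are shELOVL5 over shNC. The genes that rose were MCL1, XIAP, CFLAR, FAS, TNFRSF10A and CYCS, and those that fell were PMAIP1, CASP2, CASP9 and FADD. The groups were fully separated for these 10 and for another 11 of the 30 that did not change, 21 in all, where 60.1% of all tested genes were separated. PMAIP1 and CYCS passed in all 11 alternative fits, and the other 8 each lost their call in at least 1 of them.

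**Figure D1:**
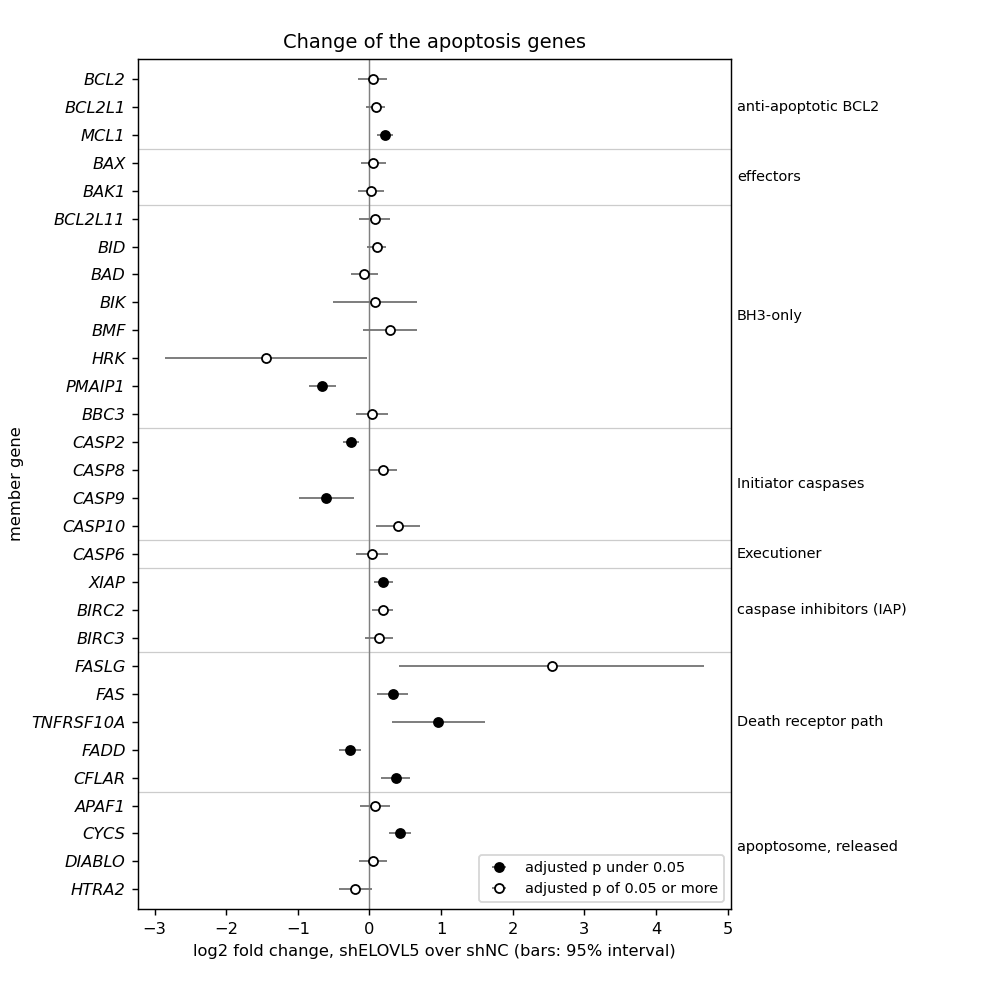
Log2 fold change of the 30 tested apoptosis genes, shELOVL5 over shNC, with 95% intervals as bars, in order of their roles; filled points passed the adjusted p threshold. Filled points lie on both sides of 0, and the widest intervals belong to HRK and FASLG, the genes with the fewest counts.

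Split by function, the 8 anti-apoptotic genes (BCL2, BCL2L1, MCL1, BCL2A1, XIAP, BIRC2, BIRC3 and CFLAR) had 7 tested members, of which 3 rose and 0 fell. All 7 had a log2 fold change above 0, with a median of 0.18 and a range of 0.046 to 0.36, where 50.8% of all tested genes lay above 0 and their median was 0.0062. They were also all above 0 with other scalings; without shELOVL5 replicate 2 it was 6 of 7, BCL2 then being at -0.036, and with no filter on low counts 7 of 8, BCL2A1 then being tested and below 0. The 23 pro-apoptotic genes were all tested, with 3 higher and 4 lower, 16 above 0 and a median of 0.054. These counts and medians are descriptions of a short list and carry no test of their own. The anti-apoptotic calls depended on single libraries: without shELOVL5 replicate 1 or 2 none of the 3 passed, without shNC replicate 1 only MCL1 did, and without shNC replicate 2 only CFLAR did.

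Levels between genes were compared as CPM per kilobase of merged exon length, which still differs from molecule number where a gene uses only some of its annotated exons. MCL1 stood highest on this scale, at 55.7 ± 0.0318 in shELOVL5 and 47.9 ± 2.90 in shNC cells (SD, n = 2 each), followed in shELOVL5 cells by CYCS, BCL2L1, BAD and FADD at 34.6 to 39.8. CYCS at 39.8 ± 2.76, BCL2L1 at 39.6 ± 1.78 and BAD at 39.5 ± 0.274 did not differ beyond their spread. In shNC cells FADD (41.8 ± 0.669) and BAD (41.6 ± 4.63) came next after MCL1, and CYCS was at 29.6 ± 2.31. BAD shares 404 of its 1708 exon bases with GPR137, and FADD 1011 of its 1841 with AP000879.1, both on the opposite strand. GPR137 gave 1041 and 1062 counts in shELOVL5 and 1136 and 994 in shNC libraries. The strand setting of the counting is not known, and the part of such reads in these levels was not tested. BCL2 itself, at 4.13 ± 0.319 in shELOVL5 and 4.00 ± 0.0468 in shNC cells, was far below MCL1 and BCL2L1. The effectors were nearly level with each other, BAK1 at 24.9 ± 0.162 and BAX at 24.4 ± 0.532 in shELOVL5, against 24.5 ± 1.18 and 23.5 ± 0.829 in shNC cells. The lowest tested genes were HRK, FASLG and TNFRSF10A, all under 2 CPM per kilobase in each group.

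**Figure D2:**
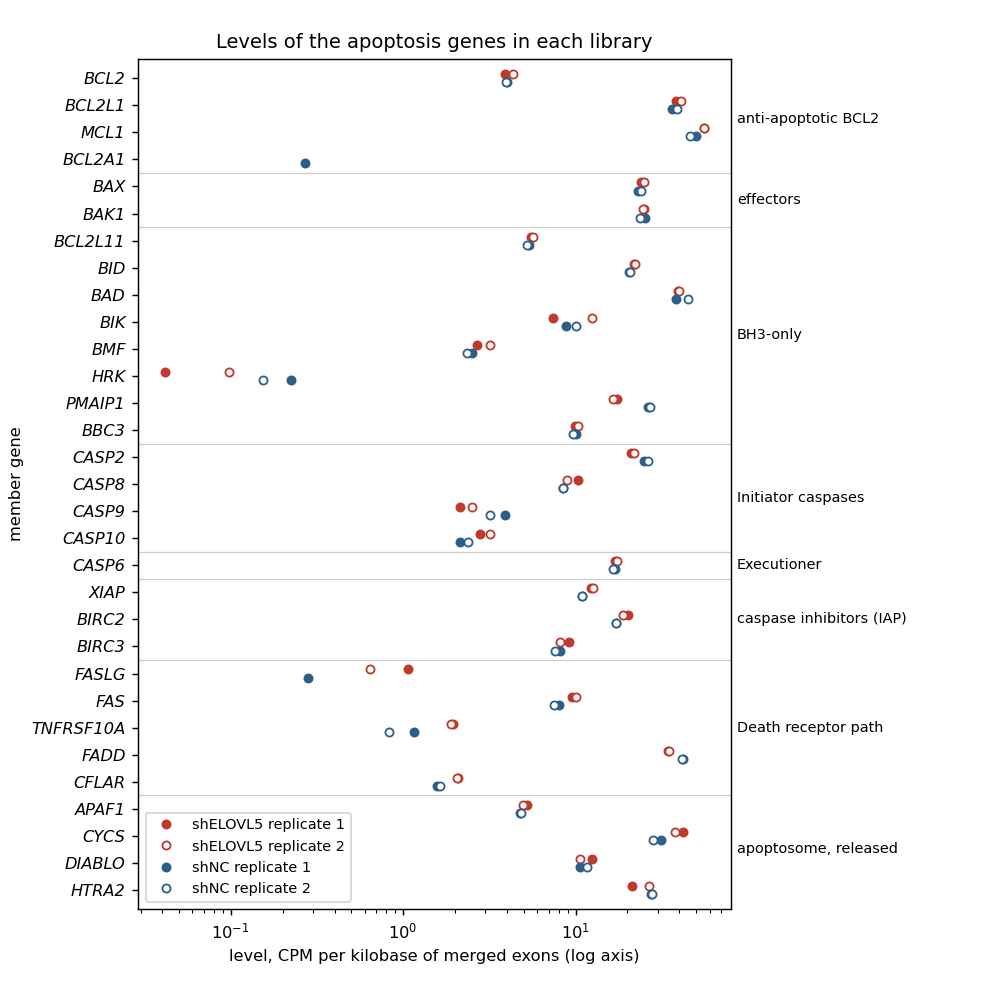
Level of each apoptosis gene in each of the 4 libraries, in CPM per kilobase of merged exons on a log axis; red points are shELOVL5 and blue points shNC libraries, and libraries with 0 counts are not drawn (BCL2A1 in 3 libraries, FASLG in shNC replicate 2). The spread between genes, from under 1 to above 50, is far wider than the spread between groups for nearly all of them.

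Among the anti-apoptotic BCL2 genes MCL1 alone changed. MCL1, a short-lived guardian that holds BAK1 and BH3-only proteins in check, lies at chr1:150574551-150579738 on GRCh38 (all gene positions are from GENCODE release 29). It was at 243 and 243 CPM in shELOVL5 libraries, against 218 and 200.5 CPM in shNC libraries. The groups did not overlap, and the log2 fold change was 0.22 (SE 0.0508, adjusted p = 0.0130). It did not pass without shELOVL5 replicate 1 (adjusted p = 0.0966), shELOVL5 replicate 2 (0.0779) or shNC replicate 2 (0.0729), nor with no filter on low counts (0.0625). BCL2, the founding member of the family, was at 45.9 and 51.2 CPM in shELOVL5 and 47.4 and 46.6 CPM in shNC libraries, so the groups overlapped, and its log2 fold change of 0.046 had a 95% interval of -0.16 to 0.25. BCL2L1, which encodes BCL-xL, had a log2 fold change of 0.085 (-0.047 to 0.22). BCL2A1, an NF-kB-inducible member, gave 0 counts in both shELOVL5 libraries and 5 and 0 in shNC libraries and was not tested. Counts are per gene, so the long and short splice forms of MCL1, BCL2L1, BCL2L11 and CFLAR, which are known to act differently, were not separated.

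The effectors did not pass. BAX had a log2 fold change of 0.054 (95% interval -0.12 to 0.23, adjusted p = 0.690 by edgeR) and BAK1 of 0.020 (-0.16 to 0.21, adjusted p = 0.899), and for both genes the libraries of the groups overlapped.

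Of the 8 BH3-only genes, which encode the upstream sensors of the mitochondrial route, 1 fell and 0 rose. PMAIP1, which encodes NOXA, a BH3-only protein that binds MCL1 (chr18:59899948-59904306), fell to 38.7 and 36.9 CPM in shELOVL5 libraries, against 58.7 and 60.4 CPM in shNC libraries. The gap between the groups was larger than any difference within them, and PMAIP1 was 1.58-fold lower in shELOVL5 (log2 fold change -0.66, SE 0.0869, adjusted p = 0.000477). Leaving out any 1 library kept it between -0.70 and -0.62, with adjusted p-values of 0.000934 to 0.00771. HRK, a BH3-only gene best known from neurons, gave 5 and 11 counts in shELOVL5 and 26 and 17 in shNC libraries; the groups did not overlap, but its log2 fold change of -1.44 (95% interval -2.85 to -0.030) did not pass (adjusted p = 0.145). That value was -0.96 without shELOVL5 replicate 1 and -2.15 without shELOVL5 replicate 2, and neither passed (adjusted p = 0.492 and 0.175). The other 6 had log2 fold changes of -0.073 for BAD to 0.28 for BMF. BCL2L11, which encodes BIM, was at 36.6 and 37.5 CPM in shELOVL5 and 35.6 and 34.9 CPM in shNC libraries (log2 fold change 0.072, 95% interval -0.14 to 0.29). BBC3, which encodes the p53 target PUMA, was at 31.6 and 32.8 against 32.1 and 30.9 CPM (log2 fold change 0.033, -0.19 to 0.26). BID, the link from caspase-8 to mitochondria, had 0.099 (-0.035 to 0.23). BIK was uneven within shELOVL5, with 123 and 197 counts in shELOVL5 and 142 and 154 in shNC libraries, and the sign of its log2 fold change depended on the library left out.

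The regions around the starts of the genes were read from RefSeq's promoter table (GRCh38.p14), which holds windows of 300 bases, 250 before and 50 after each start, for 27 of the 31 genes. The windows of PMAIP1 (chr18:59899746-59900045, plus strand) and HRK (chr12:116881392-116881691, minus strand) are shown because these are the BH3-only genes with the lowest log2 fold changes. Capitals in PMAIP1 mark the core of the cyclic AMP response element, TGACG on either strand (here as CGTCA), and in HRK the amino acid response element, TGATGNAA on either strand; the motifs do not overlap each other here.
PMAIP1: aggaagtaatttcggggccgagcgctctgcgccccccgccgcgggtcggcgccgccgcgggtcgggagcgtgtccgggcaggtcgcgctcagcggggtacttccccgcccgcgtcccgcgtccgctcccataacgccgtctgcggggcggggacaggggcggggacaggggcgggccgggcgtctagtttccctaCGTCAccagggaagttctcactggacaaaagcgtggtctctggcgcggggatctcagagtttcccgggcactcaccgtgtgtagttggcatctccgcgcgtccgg
HRK: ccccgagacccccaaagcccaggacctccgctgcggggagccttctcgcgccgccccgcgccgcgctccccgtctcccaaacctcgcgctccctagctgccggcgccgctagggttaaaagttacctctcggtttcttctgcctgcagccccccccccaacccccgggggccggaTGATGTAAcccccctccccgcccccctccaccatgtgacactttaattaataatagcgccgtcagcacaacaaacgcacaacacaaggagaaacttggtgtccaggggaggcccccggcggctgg
Counted from RefSeq's starts, the marked PMAIP1 match began 55 bases before the start and the marked HRK match 75 bases before it. For PMAIP1 this start is a different base from the GENCODE start given above. The HRK window also holds TGACG (as CGTCA), left in lower case. TGACG was present in 32.0% of the 50 windows of the apoptosis genes, against 24.6% of all 35116 windows. Of the 13 genes with it, 4 changed: PMAIP1, CYCS, CASP9 and XIAP. The others, BAD, BAX, BCL2, BCL2L1, BIRC2, BIRC3, BMF, DIABLO and HRK, did not. TGATGNAA was present in 4.00% of these 50 windows, those of HRK and BCL2A1, against 3.62% of all windows. A match is a run of letters and does not show binding.

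Among the caspases, the initiators CASP2 and CASP9 fell, and CASP8, CASP10 and the executioner gene CASP6 did not pass. CASP2, whose protein is activated on the PIDDosome platform (chr7:143288215-143307696), was at 167 and 176 CPM in shELOVL5 libraries, against 199.9 and 211 CPM in shNC libraries. Its log2 fold change was -0.26 (SE 0.0510, adjusted p = 0.00477), and without shELOVL5 replicate 1 it missed the threshold (adjusted p = 0.0578). CASP9, the apoptosome's caspase (chr1:15490832-15526534), fell to 11.3 and 13.3 CPM in shELOVL5 libraries, against 20.4 and 16.9 CPM in shNC libraries. The groups did not overlap and the log2 fold change was -0.60 (SE 0.172, adjusted p = 0.0316), with 198 and 219 counts against 347 and 271. CASP9 did not pass without shELOVL5 replicate 1 (adjusted p = 0.172), shELOVL5 replicate 2 (0.0640) or shNC replicate 1 (0.179), nor with no filter on low counts (0.0843).

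The death receptor caspase genes were both higher in every shELOVL5 library, without passing. Groups were separated in either direction for 60.1% of all tested genes. CASP8 was at 74.7 and 64.2 CPM in shELOVL5 and 61.2 and 60.9 CPM in shNC libraries (log2 fold change 0.19, 95% interval -0.0077 to 0.38, adjusted p = 0.170 by edgeR). CASP10, its close relative, was at 21.2 and 24.1 against 16.3 and 18.0 CPM (log2 fold change 0.40, 95% interval 0.091 to 0.71, adjusted p = 0.0701). CASP6 was at 32.8 and 33.7 against 32.7 and 32.0 CPM, with a log2 fold change of 0.039 (-0.18 to 0.26).

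**Figure D3:**
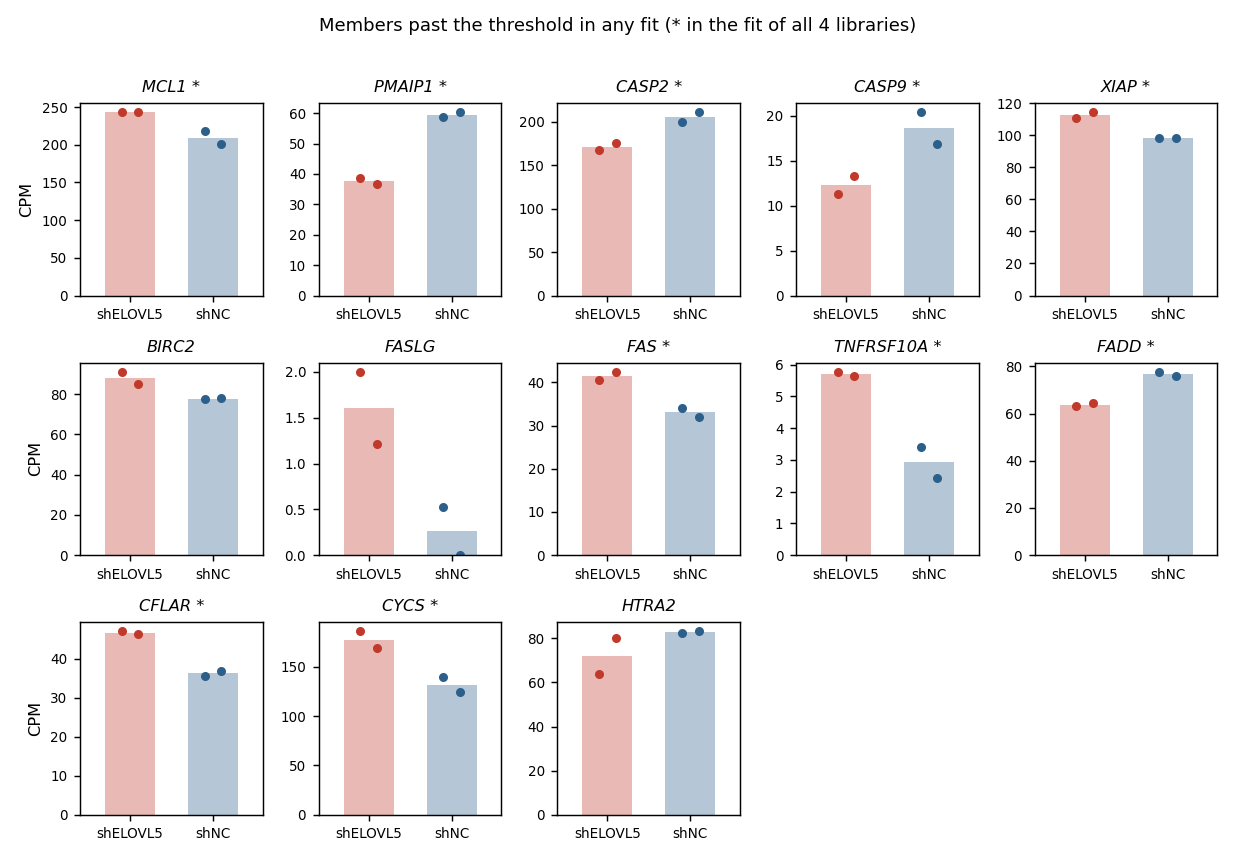
CPM in each library (points) and group mean (bars, n = 2) for the 13 genes that passed the threshold in at least 1 fit, shELOVL5 left and shNC right; an asterisk marks the 10 that passed with all 4 libraries. The 2 shELOVL5 points lie on one side of both shNC points in every panel. The panels were picked by p-values from these same libraries, and 60.1% of all tested genes were separated in this way.

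The caspase inhibitor genes lay slightly higher in shELOVL5 cells, and XIAP passed. XIAP, the IAP protein that binds caspases most directly (chrX:123859724-123913979), was at 111 and 114 CPM in shELOVL5 libraries, against 98.4 and 98.4 CPM in shNC libraries (log2 fold change 0.19, SE 0.0575, adjusted p = 0.0368). No fit with a library left out kept the call (adjusted p = 0.122 and 0.222 without shELOVL5 replicates 1 and 2, 0.0960 and 0.108 without shNC replicates 1 and 2). It was also lost with DESeq2 (adjusted p = 0.102), limma-voom (0.0555) and no filter on low counts (0.0787). BIRC2, which encodes the ubiquitin ligase cIAP1, was at 91.1 and 85.0 against 77.4 and 77.9 CPM, with a log2 fold change of 0.18; it missed the threshold (adjusted p = 0.0874) except with scaling by total counts only (0.0443). BIRC3, its neighbour on chromosome 11 and the gene of cIAP2, was at 68.8 and 61.1 against 61.4 and 57.1 CPM, and the groups overlapped (log2 fold change 0.13, 95% interval -0.060 to 0.33).

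In the death receptor group 3 of 5 genes rose and 1 fell. Over all tested genes 20.4% changed, and 29.5% of those with a mean of at least 10 CPM. The 3 that rose include CFLAR, whose protein restrains this route. CASP8 and CASP10 are counted with the caspases and did not pass. TNFRSF10A, which encodes the TRAIL receptor DR4 (chr8:23190452-23225126), gave 101 and 93 counts in shELOVL5 libraries, against 58 and 39 in shNC libraries. That was 1.95-fold higher at low levels, 5.70 ± 0.107 CPM in shELOVL5 and 2.92 ± 0.696 CPM in shNC cells (SD, n = 2 each; log2 fold change 0.96, SE 0.291, adjusted p = 0.0402 by edgeR). It did not pass without shELOVL5 replicate 1 (adjusted p = 0.173), shELOVL5 replicate 2 (0.144) or shNC replicate 2 (0.188), nor with DESeq2 (0.101), limma-voom (0.0527) or no filter on low counts (0.0948).

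FAS, the receptor of FAS ligand (chr10:88990582-89015785), was at 40.6 and 42.5 CPM in shELOVL5 libraries, against 34.1 and 32.1 CPM in shNC libraries (log2 fold change 0.33, SE 0.0977, adjusted p = 0.0388). It lies head to head with ACTA2, the smooth muscle actin gene on the opposite strand, and 380 of its 4253 exon bases are also ACTA2 exon. ACTA2 gave 1411 and 1224 counts in shELOVL5 and 152 and 99 in shNC libraries, while FAS gave 709 and 702 against 580 and 515. The strand setting of the counting is not given by the labels, so reads from the shared bases cannot be assigned, and their part in the FAS result was not tested. FAS lost its call with any 1 library left out (adjusted p = 0.130 and 0.196 without shELOVL5 replicates 1 and 2, 0.0668 and 0.158 without shNC replicates 1 and 2). It also lost it with DESeq2 (0.0978), limma-voom (0.0515), a replicate block (0.0560) and no filter on low counts (0.0765).

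FASLG, the ligand gene, gave 35 and 20 counts in shELOVL5 and 9 and 0 in shNC libraries. Its log2 fold change of 2.54 had a 95% interval of 0.42 to 4.67 and missed the threshold (adjusted p = 0.0939 by edgeR). With shNC replicate 1 left out, the shNC library that held all 9 counts, FASLG passed. That fit sets FASLG against a single library at 0 counts, so its log2 value of 7.75 is no measure of size. With shNC replicate 2 left out the log2 fold change was 1.58 (adjusted p = 0.172). FADD, the adaptor that joins receptors to caspase-8 (chr11:70203163-70207390), fell to 63.1 and 64.3 CPM in shELOVL5 libraries, against 77.8 and 76.0 CPM in shNC libraries (log2 fold change -0.27, SE 0.0707, adjusted p = 0.0211). The antisense gene AP000879.1 shares 1011 of the 1841 exon bases of FADD, and it gave 295 and 296 counts in shELOVL5 and 343 and 332 in shNC libraries; without strand these genes cannot be separated. FADD did not pass without shELOVL5 replicate 1 (adjusted p = 0.113), shELOVL5 replicate 2 (0.0912) or shNC replicate 1 (0.0636).

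CFLAR, which encodes cFLIP (chr2:201116104-201176687), was at 47.1 and 46.3 CPM in shELOVL5 libraries, against 35.6 and 37.0 CPM in shNC libraries (log2 fold change 0.36, SE 0.0916, adjusted p = 0.0179). Both shELOVL5 libraries lay above both shNC libraries, and replicates lay close together. It did not pass without shELOVL5 replicate 1 (adjusted p = 0.119), shELOVL5 replicate 2 (0.0820) or shNC replicate 1 (0.0756). CFLAR, CASP10 and CASP8 are neighbours on chromosome 2, and all 3 were higher in both shELOVL5 libraries than in either shNC library. Of the 3, only CFLAR passed, and groups were separated in either direction for 60.1% of all tested genes.

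In the apoptosome group, CYCS rose and the rest did not pass. CYCS, which encodes cytochrome c, the electron carrier that triggers apoptosome assembly once in the cytosol (chr7:25120091-25125361), was at 186 and 169 CPM in shELOVL5 libraries, against 139 and 125 CPM in shNC libraries. It was 1.34-fold higher (log2 fold change 0.43, SE 0.0682, adjusted p = 0.00184), and leaving out any 1 library gave values of 0.34 to 0.50 with adjusted p-values of 0.000440 to 0.0284. The genome holds many processed copies of CYCS; the 40 in the table summed to 15 and 21 counts in shELOVL5 and 9 and 19 in shNC libraries, against 3249 and 2785, and 2365 and 2001, for CYCS itself. Its start window (chr7:25125211-25125510, minus strand) is shown because CYCS had the lowest adjusted p among the genes that rose. TGACG (as CGTCA) is in capitals, 80 bases before RefSeq's start. On this strand the GENCODE start is the upper end of the gene position above, which is a different base. The match lies inside the GENCODE gene.
CYCS: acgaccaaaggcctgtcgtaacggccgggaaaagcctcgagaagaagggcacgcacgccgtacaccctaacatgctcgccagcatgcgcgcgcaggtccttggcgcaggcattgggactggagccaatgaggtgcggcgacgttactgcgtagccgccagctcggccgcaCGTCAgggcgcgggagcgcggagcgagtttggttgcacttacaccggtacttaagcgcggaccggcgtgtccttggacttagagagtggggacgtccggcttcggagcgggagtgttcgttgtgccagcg
APAF1, the scaffold of the apoptosome, was at 41.1 and 39.1 CPM in shELOVL5 and 37.9 and 38.0 CPM in shNC libraries (log2 fold change 0.080, 95% interval -0.13 to 0.29). DIABLO had a log2 fold change of 0.047 (-0.15 to 0.24), and its groups overlapped. HTRA2, a mitochondrial protease that also binds IAP proteins, was at 64.0 and 80.1 against 82.3 and 83.1 CPM (log2 fold change -0.20, adjusted p = 0.211); the value was -0.054 without shELOVL5 replicate 1 (adjusted p = 0.760), and without shELOVL5 replicate 2 the change passed (-0.37, adjusted p = 0.0333). HTRA2 shares 483 exon bases with AUP1 and 625 with LOXL3 on the opposite strand. AUP1 gave 2313 and 2107 counts in shELOVL5 and 2188 and 1984 in shNC libraries, and LOXL3 62 and 35 against 30 and 44. DIABLO shares 970 exon bases with B3GNT4 on the opposite strand, which gave 815 and 1000 against 822 and 768 counts. The part of such reads in the values of HTRA2 and DIABLO was not tested.

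Partner genes were also set against each other within each library, as ratios of CPM per kilobase, which do not depend on how libraries are scaled. The 8 pairs were chosen because their proteins are known to bind each other or to meet in 1 complex, and with the changes above known, so the ratios are descriptions. With 2 libraries against 2, no exact permutation test of a single ratio can reach 0.05. For 6 of the 8 pairs the groups did not overlap, and 5 of these hold a gene that changed on its own. MCL1 to PMAIP1 was 3.22 and 3.37 in shELOVL5 libraries, against 1.90 and 1.70 in shNC libraries, a difference of 0.87 on the log2 scale. XIAP to CASP9 was 5.71 and 5.04 against 2.81 and 3.40, and APAF1 to CASP9 was 2.42 and 1.97 against 1.23 and 1.50. CFLAR to FADD was 0.0610 and 0.0588 in shELOVL5 libraries, against 0.0374 and 0.0398 in shNC libraries, a log2 difference of 0.64. These 4 ratios were the most separated. BCL2 to BCL2L11 overlapped, at 0.709 and 0.772 against 0.753 and 0.756, and so did XIAP to DIABLO, at 0.988 and 1.19 against 1.02 and 0.935.

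**Figure D4:**
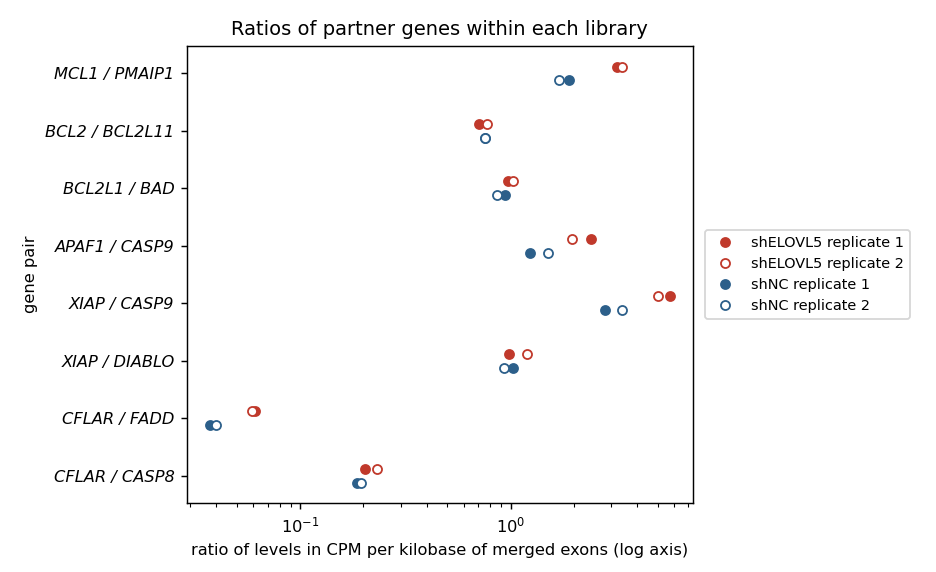
Ratio of levels for 8 gene pairs within each library, in CPM per kilobase of merged exons on a log axis; red points are shELOVL5 and blue points shNC libraries. MCL1 to PMAIP1 lies at 3.22 and 3.37 in shELOVL5, to the right of both shNC libraries, whereas BCL2 to BCL2L11 overlaps.

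A further 46 apoptosis genes outside the 31 were examined as a list, of which 40 were tested; 7 rose and 6 fell. Their median log2 fold change was -0.011, against 0.0062 for all tested genes, and 32.5% changed, against the 20.4% of all tested genes. From 10 CPM upwards that background share was 29.5%. The further list was not split by level, so its share cannot be read as an excess over genes of similar level. Named by smallest p, those that rose were TNFRSF10B, BNIP3, VDAC1 and BCL2L12. TNFRSF10B, the gene of the second TRAIL receptor that signals death, was at 98.9 ± 5.69 CPM in shELOVL5 and 69.5 ± 1.23 CPM in shNC cells (SD, n = 2 each; log2 fold change 0.51, adjusted p = 0.000560 by edgeR). BNIP3, a mitophagy receptor gene of the BCL2 family, was at 78.9 and 77.2 CPM in shELOVL5 and 56.1 and 48.2 CPM in shNC libraries (log2 fold change 0.58, SE 0.0877). VDAC1, which encodes the main channel of the outer mitochondrial membrane, was at 161 and 175 against 133 and 125 CPM (0.38, SE 0.0600). Its relatives did not follow it: VDAC3 fell (log2 fold change -0.23, SE 0.0558, adjusted p = 0.0138) and VDAC2 was at -0.028 (95% interval -0.15 to 0.093); both were added after their values were seen. The groups overlapped for VDAC2 but not for TNFRSF10B, BNIP3, VDAC1 or VDAC3. BCL2L12, a BCL2-related gene, was at 69.9 and 81.0 against 50.2 and 54.8 CPM (0.52, SE 0.0921), again without overlap. Those that fell were TNFSF10, BAG1, BIRC5 and PARP1. TNFSF10, which encodes TRAIL, gave 86 and 69 counts in shELOVL5 libraries, against 198 and 211 in shNC libraries (log2 fold change -1.44, SE 0.223, adjusted p = 0.00123). BAG1, a co-chaperone gene whose protein binds BCL2, was at 40.1 and 37.7 CPM in shELOVL5 and 58.1 and 55.3 CPM in shNC libraries (log2 fold change -0.54, SE 0.0891). BIRC5, the survivin gene, whose protein is also needed in mitosis, fell by 0.26 on the log2 scale (SE 0.0476), and PARP1, whose protein caspases cleave, by 0.18 (SE 0.0380). For all 4 both shELOVL5 libraries were below both shNC libraries. Genes named by smallest p are likely to be separated, and 60.1% of all tested genes were, in either direction. The same holds for the genes that rose. The TRAIL ligand gene was thus lower and both of its death receptor genes higher in shELOVL5 cells. TNFRSF10A rests on fewer counts and lost its call in several alternative fits. The other TRAIL receptor genes on the list, TNFRSF10C (log2 fold change -0.68) and TNFRSF10D (1.50), did not pass. Neither had more than 22 counts in any library, and both were added after their values were seen. Without shELOVL5 replicate 2, 3 of the listed genes fell. PARP1 did not pass without shELOVL5 replicate 1 or 2.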

How the data were processed

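RNA sequencing covered 4 libraries, 2 of shELOVL5 and 2 of shNC cells, grouped and numbered by their titles. Per the labels' protocols, libraries were built with a TruSeq RNA kit from TRIzol-extracted RNA. The authors deposited raw read counts by gene as whole numbers, without scaling; per the submitters' processing notes, HISAT2 2.2.0, StringTie and build hg38 were used, with the annotation, counting step and strand setting not given in the sources used here.

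Genes were kept by filterByExpr (minimum count 10), scaled by TMM and tested with edgeR 4.0.16 in R 4.3.3 (glmQLFit, robust=TRUE, and glmQLFTest), as a two-sided test of group with no covariate, and Benjamini-Hochberg adjustment over 17461 genes. CPM are TMM-scaled. SE is the log2 fold change over the square root of F, and 95% intervals use the t distribution with the test's degrees of freedom. Identifiers were paired with symbols by a gene name table, and exon lengths came from GENCODE 29 on GRCh38. A count of 0 was taken to allow 3 counts. Replicates differed beyond sampling noise (chi-square per degree of freedom 5.19 in shELOVL5 and 5.58 in shNC, against 22.8 to 24.8 between groups). Alternatives were RLE size factors, total counts, 2 other filters, DESeq2 1.42.0, limma-voom (limma 3.58.1), a replicate block and leaving out each library. The members, lists, pairs and motifs were chosen with earlier results of these data known. Some cell type markers are not reported here. Named with values were members past the threshold in any fit, and up to 4 further apoptosis genes with the smallest p in each direction. Values of other members and of ACTA2, VDAC2, VDAC3, TNFRSF10C and TNFRSF10D were added after they were seen.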

Additional observations from a re-analysis of the deposited data

How the results depend on the processing

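All directions and calls of the 30 tested genes held with RLE size factors and with a filter of 1 CPM in 2 libraries. Of the 10 genes that changed, 5 were lost with no filter on low counts (2 then rose, and 899 genes rose overall), 3 with DESeq2 and 3 with limma-voom (3 rose in each). With total counts only, 1933 genes rose and 1674 fell, against 1610 and 1952 with TMM, and the median of all tested genes was 0.042, against 0.0062; BIRC2 was added and the pro-apoptotic median was 0.090, against 0.054. Same-numbered libraries shared only a number (correlation of their deviations 0.061 over 10793 genes); the replicate block ended the call of FAS alone (adjusted p = 0.0560) and called 1551 genes higher. HRK and FASLG had no adjusted p in DESeq2.

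Leaving out 1 library assumes that the lone library of its group varies like the other group. It gave 696 to 1347 genes higher and 1176 to 1616 lower, and 1 to 4 apoptosis genes in each direction. The other apoptosis genes gave 5 to 8 higher and 3 to 7 lower, the anti-apoptotic median was 0.12 to 0.21 and the pro-apoptotic median 0.031 to 0.076. Directions reversed for genes that had not changed: BCL2 (-0.036 to 0.12), BAK1 (-0.035 to 0.067), BAD (-0.19 to 0.038), BIK (-0.35 to 0.40), BBC3 (-0.00067 to 0.057) and DIABLO (-0.078 to 0.15). The cause of these moves was not tested. HRK, FASLG and TNFRSF10A rest on at most 101 counts a library, which limits their precision.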
